A study of Mus musculus with 3 samples.

Results

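The FGF/ERK feedback genes are transcripts that ERK, the last kinase of the pathway below fibroblast growth factor (FGF) receptors, is known to induce and whose products mostly restrain that pathway. The 10 members were listed by name, by a rule that sets no threshold on measured values: the phosphatase genes Dusp4, Dusp5 and Dusp6, the Sprouty and Spred genes Spry1, Spry2, Spry4 and Spred1, the ETS transcription factor genes Etv4 and Etv5, and Phlda1. All 10 were found, under their Entrez Gene identifiers, in each of 3 RNA-seq libraries, among 17209 genes listed in at least 1 library and 12955 whose level, in read counts scaled to library size (CPM), averaged 1 or more over the libraries. The libraries came from mouse epiblast stem cells (EpiSCs) of strain 129 at passage 1, pluripotent cells akin to the post-implantation epiblast. Routine culture was on gelatin, in serum containing both IWR1, which stabilises Axin and dampens Wnt signalling, and Y27632 (labelled Y27), a compound that lowers actomyosin contraction. The NT library came from cells after overnight withdrawal of both compounds, the IWR1 library after 12 h in 2 µM IWR1, and that of Y27 after 12 h in 0.5 µM Y27, a dose given as labelled. Each group was 1 library, so no difference below has a replicate check, no p-value was computed, and withdrawal in NT and treatment cannot be told apart.

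FGF binding to its receptors activates the GTPase Ras and then the kinases Raf, MEK and ERK. In epiblast cells FGF/ERK signalling is known to support the primed pluripotent state and the formation of mesoderm at the primitive streak. DUSP phosphatases remove the activating phosphates from ERK, Sprouty and Spred proteins act between the receptor and Raf, and Etv4 and Etv5 carry the signal to target genes. Transcripts of these genes follow ERK activity with a short delay and are often read as a measure of it. ERK phosphorylation itself was not measured in these libraries.

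The estimated counts summed to between 5459332 and 5767550 per library. Epiblast markers, 9 genes that were all listed in each library, summed to 3071 CPM in NT, 3748 CPM in IWR1 and 2658 CPM in Y27. Among them Pou5f1 was at 1462, 1318 and 1163 CPM and Sox2 at 172, 284 and 185 CPM. Primitive streak markers, 8 genes led by T, summed to 1978 CPM in NT, 471 CPM in IWR1 and 1989 CPM in Y27. Fibroblast markers summed to 121, 73.6 and 62.0 CPM over the 9 genes of that list, of which Lum was listed in no library. Trophoblast markers (6 genes, Elf5 in no library) summed to 238, 113 and 295 CPM, extraembryonic endoderm markers (6 genes, Sox17 and Afp in no library) to 30.6, 16.4 and 35.4 CPM, and neural markers (5 genes, mostly Tubb3) to 40.9, 45.4 and 19.4 CPM. Eomes, which is in both the streak and the trophoblast list, made up most of the trophoblast sum, at 162, 93.3 and 204 CPM. Dab2 made up most of the endoderm sum, at 27.2, 14.8 and 30.7 CPM. Axin2, a feedback target of Wnt signalling, was at 173 CPM in NT, 39.5 CPM in IWR1 and 167 CPM in Y27. Shares of cell types and RNA per cell cannot be told apart in such bulk libraries.

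The data turned on 3 patterns. In the IWR1 library the 3 phosphatase genes and Etv4 were lower than in NT while Spry4 was higher, so the list was split. In the Y27 library Phlda1 was 3.16-fold lower and Dusp5 1.85-fold lower, with most other members close to NT. Spry2 was within counting error in each pair of libraries. Ranges after a fold are exact 95% intervals of the ratio of counts and cover counting error only.

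Promoter windows were searched for 6 of the 10 members. Dusp4, Phlda1, Spry4 and Etv4 were not among them, so neither member past 2-fold from NT was covered. The member search also skipped a chromosome that the background of all windows kept. Dusp5 and Dusp6 were both lower in IWR1, and Dusp5 stood further from NT in Y27. The Dusp5 to Dusp6 read ratio in Y27 had an interval (0.0239 to 0.0416) that overlapped that of NT (0.0415 to 0.0623). The 2 windows shown are of this pair, chosen after its values were seen. Each is the 250 bases before the transcription start, from RefSeq on GRCm38.p6, plus strand, at chr19:53528895-53529144 for Dusp5 and chr10:99262981-99263230 for Dusp6. Capitals mark matches to the CArG box, the motif bound by serum response factor (SRF).
Dusp5: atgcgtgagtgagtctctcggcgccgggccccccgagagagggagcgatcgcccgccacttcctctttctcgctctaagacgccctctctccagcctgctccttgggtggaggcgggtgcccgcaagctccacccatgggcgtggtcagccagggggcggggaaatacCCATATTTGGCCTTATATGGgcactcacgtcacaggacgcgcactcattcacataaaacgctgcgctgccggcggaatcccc
Dusp6: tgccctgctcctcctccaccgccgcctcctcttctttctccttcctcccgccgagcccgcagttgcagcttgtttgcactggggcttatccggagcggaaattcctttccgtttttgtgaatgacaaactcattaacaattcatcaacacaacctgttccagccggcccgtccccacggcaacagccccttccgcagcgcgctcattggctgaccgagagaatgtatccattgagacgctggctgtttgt
The Dusp5 window held 2 adjacent CArG boxes, which begin at -82 and -72 from the transcription start, and the Dusp6 window held 0. Of 32851 promoter windows of the same length, 1.47% held at least 1 CArG box and 6 held at least 2. The windows were also searched on both strands for CCGGAA (ETS), TGAGTCA (AP-1), TGACGTCA (CRE), CTTTGA (TCF/LEF), CACGTG (E-box) and GGGCGG (SP/KLF). These have shares of 12.0%, 4.46%, 1.55%, 13.8%, 6.02% and 32.7% of all windows. Among the members searched, only GGGCGG was matched beside the CArG boxes, in Spred1, Spry1, Etv5 and Dusp5, where it lay apart from them. A match describes letters in this window and is not a binding site. Any link of a match to the levels of these genes was not tested.

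Levels between genes were compared per transcript length, as FPKM (fragments per kilobase of transcript, scaled to the library total). Dusp6 and Etv5 were the most abundant members in NT, at 124 and 114 FPKM, with counting intervals that overlapped (118 to 129 and 110 to 119). Dusp4 followed at 56.6 FPKM, then Etv4 at 47.7 and Spry2 at 45.4 FPKM, the latter 2 with overlapping intervals. Spred1, Phlda1, Dusp5 and Spry4 were at 21.2, 19.4, 15.7 and 13.4 FPKM, each with an interval that overlapped that of the next, and Spry1 was lowest at 9.33 FPKM. Dusp6 stood at percentile 96.1 of all genes listed in NT and Spry1 at percentile 58.3.

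**Figure D1:**
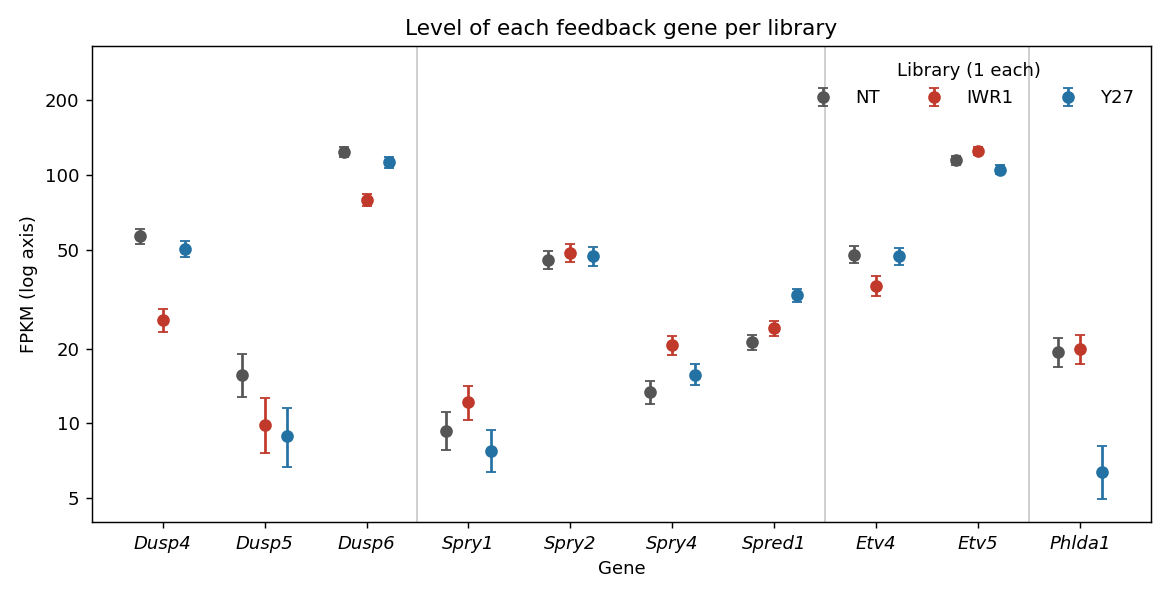
FPKM of each member (log axis) in the NT, IWR1 and Y27 libraries, with exact 95% Poisson intervals for counting error; vertical lines separate phosphatases, Sprouty and Spred genes, ETS factors and Phlda1. Dusp4, at 26.0 FPKM, and Dusp6, at 79.5 FPKM, are lowest in IWR1, and Phlda1, at 6.39 FPKM, is lowest in Y27.

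The order of levels differed between libraries. In IWR1 Etv5, at 124 FPKM, stood above Dusp6, at 79.5 FPKM, with intervals that did not overlap, and Dusp4 had moved from the third place in NT to the fifth, at 26.0 FPKM, beside Spred1 at 24.2 FPKM. In Y27 the first 5 places were those of NT, and Phlda1 was last, at 6.39 FPKM, with an interval that overlapped that of Spry1 at 7.77 FPKM.

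The first comparison, IWR1 over NT, asked how the members stood in cells treated with IWR1. Dusp4, a nuclear phosphatase of ERK and related kinases, was at 141 CPM in NT, 63.4 CPM in IWR1 and 120 CPM in Y27. The IWR1 library was 2.22-fold below NT (1.95 to 2.52) and 1.89-fold below Y27 (1.66 to 2.16), so it stood apart from both others. The log2 difference from NT, on the scale log2((CPM + 1)/(CPM + 1)), was -1.14, and 2.91% of genes compared had a larger absolute difference. Dusp4 was the only member past 2-fold in this comparison, 1 of 10, against a background of 4.55% of all genes compared. With a trend of the difference on transcript length and GC content removed it was -0.97, just under 2-fold.

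Dusp6, a cytoplasmic phosphatase specific to ERK, was at 357 CPM in NT, 225 CPM in IWR1 and 310 CPM in Y27. It was 1.58-fold lower in IWR1 than in NT (1.48 to 1.70) and 1.38-fold lower than in Y27 (1.28 to 1.48). The IWR1 library was again the low one, by less than for Dusp4. Dusp5, a nuclear phosphatase specific to ERK, was at 18.2 CPM in NT, 11.3 CPM in IWR1 and 9.86 CPM in Y27, and was 1.62-fold lower in IWR1 than in NT (1.17 to 2.25). Here both treated libraries were low, and their ratio of 1.14 had an interval that held 1 (0.782 to 1.67). Summed over the 3 phosphatase genes, the level was 196 FPKM in NT, 115 FPKM in IWR1 and 172 FPKM in Y27.

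Of the ETS factors, Etv4 was lower in IWR1 and Etv5 was not. Etv4 was at 114 CPM in NT, 84.0 CPM in IWR1 and 107 CPM in Y27, which is 1.36-fold lower in IWR1 than in NT (1.20 to 1.53). Etv5 was at 452 CPM in NT, 483 CPM in IWR1 and 398 CPM in Y27, 1.07-fold higher in IWR1 than in NT (1.01 to 1.13). The third gene of this ETS subfamily, Etv1, which is not a member, was 1.88-fold higher in IWR1 (1.57 to 2.27) and 1.95-fold higher in Y27 (1.63 to 2.35), at 60.6 and 62.9 CPM against 32.2 CPM in NT. The subfamily thus held 1 gene lower in IWR1, 1 nearly level and 1 higher in both treated libraries.

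The Sprouty and Spred genes were level with NT or higher in IWR1. Spry4, a Sprouty gene often used to report FGF signalling, was at 63.5 CPM in NT, 96.1 CPM in IWR1 and 71.5 CPM in Y27. It was 1.51-fold higher in IWR1 than in NT (1.32 to 1.74), the reverse of the direction of Dusp6. Spry1 was at 23.3 CPM in NT, 28.9 CPM in IWR1 and 19.0 CPM in Y27, and its ratio of 1.24 for IWR1 over NT had an interval that held 1 (0.979 to 1.57). Spry2 was at 97.5, 102 and 96.6 CPM, with ratios to NT of 1.05 (0.929 to 1.18) in IWR1 and 0.991 (0.879 to 1.12) in Y27. Spry2 therefore did not differ between the libraries beyond counting error. Spred2 and Spred3, relatives of Spred1, were within counting error of NT in both treated libraries, with log2 differences of 0.00 and -0.01 in IWR1 and of 0.06 and 0.15 in Y27.

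Spred1, which inhibits the step from Ras to Raf, was at 136 CPM in NT, 150 CPM in IWR1 and 182 CPM in Y27. It was 1.11-fold higher in IWR1 (1.00 to 1.22) and 1.34-fold higher in Y27 (1.22 to 1.48) than in NT. This direction depended on the processing: the log2 differences of 0.15 and 0.42 became -0.37 and -0.37 with the length and GC trend removed. Its GC content of 41.8% was the lowest of the members, and the mean transcript length given for it was 6206 bases in NT, 6144 in IWR1 and 5624 in Y27. On the deposited FPKM scale, which uses those lengths, the log2 difference of Y27 from NT was 0.61.

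**Figure D2:**
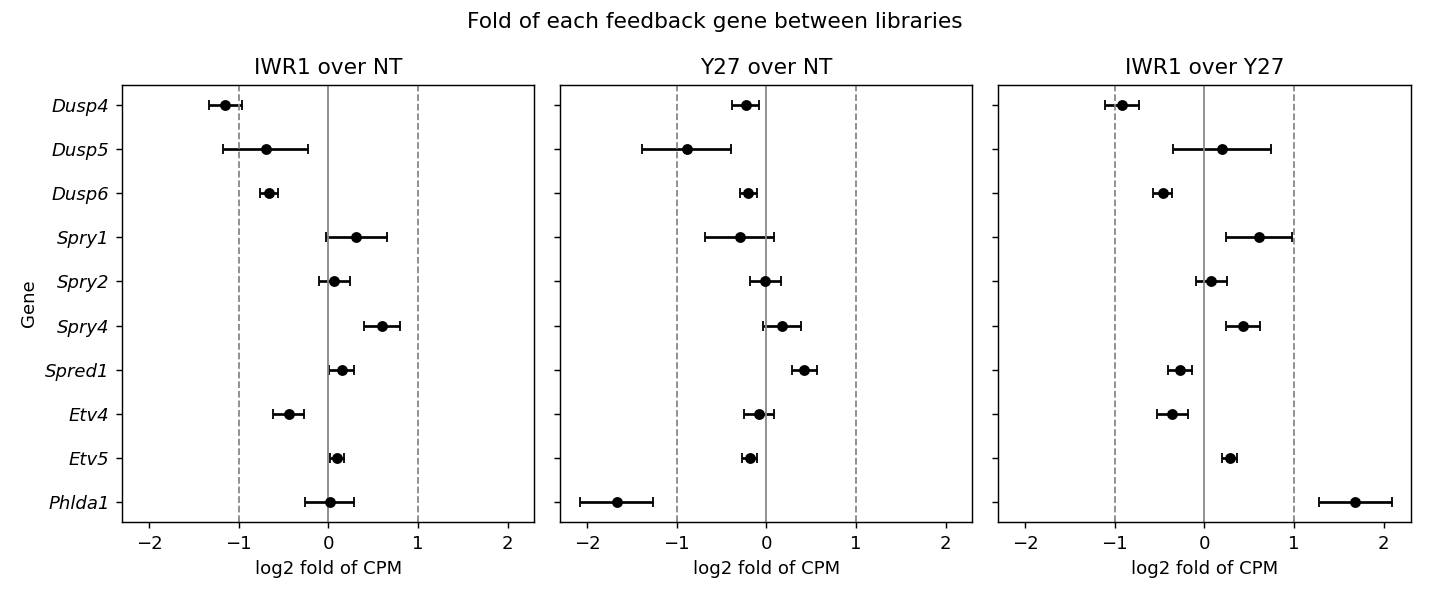
Log2 fold of CPM, without a pseudocount, of each member for IWR1 over NT, Y27 over NT and IWR1 over Y27, with exact 95% intervals for counting error; dashed lines mark 2-fold. Dusp4 lies past 2-fold in the first panel and Phlda1 in the other two.

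Over the list, 6 of 10 members were higher and 4 lower in IWR1 than in NT, against 49.7% and 50.3% of all genes compared. The median log2 difference was 0.04 against 0.00 over all genes compared. The median became -0.15 with the length and GC trend removed. Counting intervals lay above 1 for 3 members (Spry4, Etv5 and Spred1) and below 1 for 4 (Dusp4, Dusp5, Dusp6 and Etv4), against 20.3% and 19.1% of all genes compared. The members have more reads than most genes, which narrows their intervals, so these shares are not on equal terms. Alongside Dusp4, Dusp6 and Etv4, the streak, trophoblast and extraembryonic endoderm marker sums were lower in IWR1 than in both other libraries (471, 113 and 16.4 CPM against 1978, 238 and 30.6 CPM in NT), and the epiblast sum was higher (3748 against 3071 CPM). The epiblast list was split. Pou5f1 (1462 CPM in NT, 1318 CPM in IWR1) and Nanog (245 and 187 CPM) were lower in IWR1. The other genes of that list were higher, Dnmt3b by the most CPM (379 and 750 CPM). These sums are not separate evidence on cell types, since Eomes is in both the streak and the trophoblast list and Dab2 dominates the endoderm sum. The part of these markers in the differences was not tested.

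Ratios of members within a library do not depend on how libraries are scaled. Dusp6 had 5.62 reads per Spry4 read in NT (5.02 to 6.30), 2.34 in IWR1 (2.11 to 2.59) and 4.34 in Y27 (3.89 to 4.85), a pair chosen after its values were seen. Etv4 had 0.252 reads per Etv5 read in NT (0.231 to 0.275), 0.174 in IWR1 (0.157 to 0.192) and 0.271 in Y27 (0.247 to 0.296). In both pairs the IWR1 interval lay below those of the other libraries. Dusp4 had 0.394 reads per Dusp6 read in NT (0.363 to 0.428) and 0.387 in Y27 (0.353 to 0.423), but 0.282 in IWR1 (0.250 to 0.317). The ratio of Spry2 to Spry4 reads was 1.53 in NT (1.34 to 1.76), 1.06 in IWR1 (0.942 to 1.20) and 1.35 in Y27 (1.18 to 1.54).

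**Figure D3:**
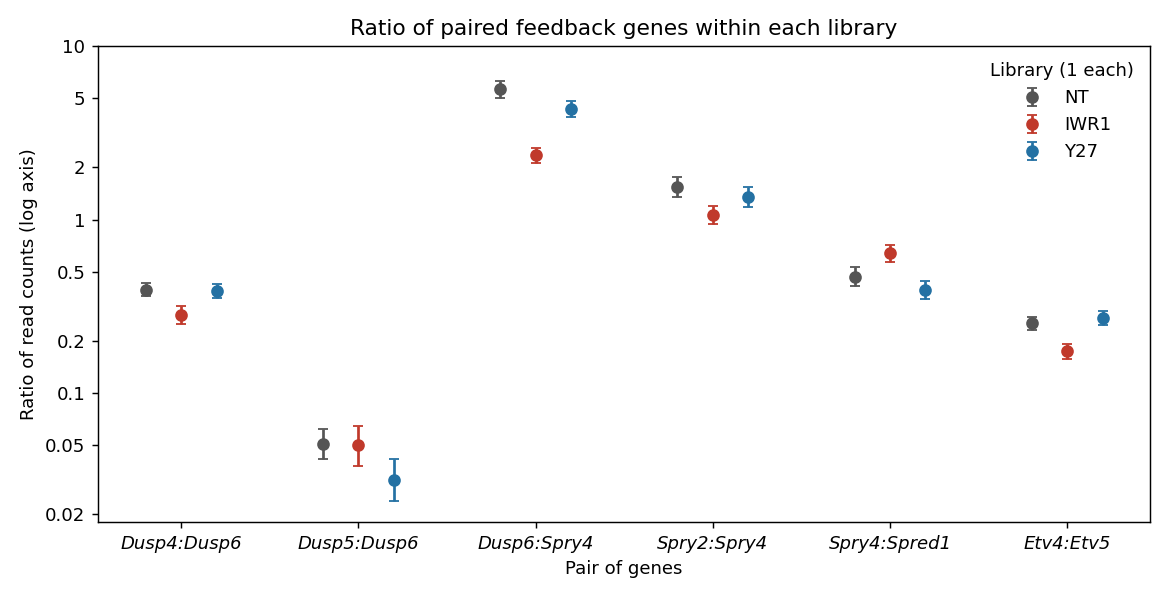
Ratio of read counts of paired members within each library (log axis), with exact 95% intervals for counting error. The Dusp6 to Spry4 ratio is 5.62 in NT, 2.34 in IWR1 and 4.34 in Y27, and the Etv4 to Etv5 ratio is lowest in IWR1, at 0.174.

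The second comparison, Y27 over NT, asked how the members stood under Y27. Phlda1, which encodes a pleckstrin homology-like protein induced by growth factors and stress, was at 38.6 CPM in NT, 38.9 CPM in IWR1 and 12.2 CPM in Y27, on 218, 218 and 68 reads. It was 3.16-fold lower in Y27 than in NT (2.40 to 4.22), while the ratio of IWR1 to NT was 1.01 (0.833 to 1.22). The log2 difference of -1.58 was exceeded in size by 0.818% of genes compared, and was -1.36 with the length and GC trend removed. Phlda1 was the only member past 2-fold, 1 of 10, against 6.92% of all genes compared. Its relatives Phlda2 and Phlda3, which share the pleckstrin homology-like domain, had log2 differences of -0.24 and -0.39 in Y27.

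Dusp5 was 1.85-fold lower in Y27 than in NT (1.32 to 2.61), on 55 reads against 103. The Dusp5 to Dusp6 read ratio was 0.0511 in NT (0.0415 to 0.0623), 0.05 in IWR1 (0.0382 to 0.0645) and 0.0318 in Y27 (0.0239 to 0.0416). Dusp5 and Dusp6 were thus lower by like amounts in IWR1. Their ratio was lowest in Y27, but with an interval that overlapped those of NT and IWR1. With the length and GC trend removed, the log2 difference of Dusp5 from NT shrank. It went from -0.65 to -0.43 in IWR1 and from -0.82 to -0.54 in Y27. In Y27 the other phosphatases were closer to NT: Dusp4 was 1.17-fold lower (1.06 to 1.30) and Dusp6 1.15-fold lower (1.08 to 1.23). That of Dusp4, a log2 difference of -0.23, shrank to -0.03 with the length and GC trend removed.

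Etv5 was 1.14-fold lower in Y27 than in NT (1.07 to 1.20). The intervals of Spry1, Spry2, Spry4 and Etv4 held 1, with ratios of 0.814, 0.991, 1.13 and 0.944. Over the list, 2 of 10 members were higher and 8 lower in Y27, against 48.2% and 51.8% of all genes compared. The members' median log2 difference was -0.19 against -0.02 over all genes compared, and was -0.11 with the trend removed. Counting intervals lay above 1 for 1 member, Spred1, and below 1 for 5 (Dusp4, Dusp5, Dusp6, Etv5 and Phlda1), against 22% and 22.9% of all genes compared. As in IWR1, these shares are not on equal terms. The summed fibroblast markers were 121 CPM in NT and 62.0 CPM in Y27, alongside Phlda1 and Dusp5. They were 73.6 CPM in IWR1, where Phlda1 was level with NT. Most of the fall of this sum in Y27 was Col1a1, at 82.2 CPM in NT, 54.7 CPM in IWR1 and 31.0 CPM in Y27. Of the other fibroblast markers, only Col1a2 had an interval below 1 for Y27 over NT (0.488 to 0.987). Pdgfra was higher in Y27, at 5.74 CPM against 4.78 CPM in NT, with an interval that held 1. The neural marker sum had the order of Phlda1, at 40.9 CPM in NT, 45.4 CPM in IWR1 and 19.4 CPM in Y27, nearly all of it Tubb3. The part of these markers in the Y27 values was not tested.

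**Figure D4:**
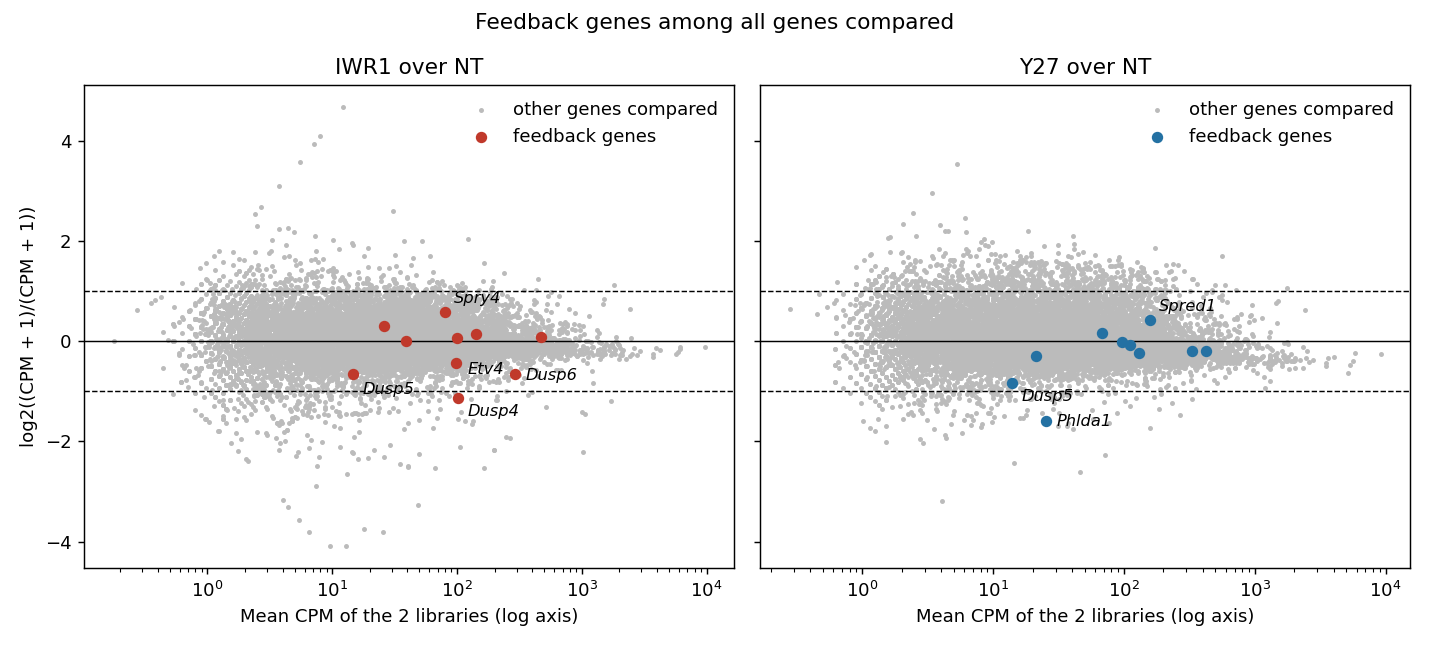
Log2((CPM + 1)/(CPM + 1)) against the mean CPM of the 2 libraries (log axis) for the 12955 genes compared (grey) and the 10 members (coloured), for IWR1 over NT and Y27 over NT; dashed lines mark 2-fold. Most members lie within the body of the grey points, with Dusp4 (-1.14) below the line in IWR1 and Phlda1 (-1.58) in Y27.

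The member with the widest spread over the libraries was Phlda1, and the 5 genes with the most similar pair of differences from NT, among 9411 named genes averaging 10 CPM or more, were Bhlhe40, Acta1, Acta2, Rrad and Pdgfb. The likeness is the distance between pairs of log2 differences over 3 libraries, from 0.07 for Bhlhe40 to 0.24 for Pdgfb. Bhlhe40, a basic helix-loop-helix repressor gene, was at 57.1 CPM in NT, 59.7 CPM in IWR1 and 17.7 CPM in Y27. Acta2, smooth muscle actin, was at 86.8, 75.2 and 28.8 CPM, and Pdgfb, a growth factor gene, at 41.6, 44.8 and 15.6 CPM. That these genes, like Phlda1, were low in Y27 and near NT in IWR1 follows from how they were picked. The counts of Acta1 and Acta2 were partly fractional, since actin genes share sequence, and are uncertain.

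The third comparison, IWR1 over Y27, set the treated libraries against each other. Phlda1 was 3.19-fold higher in IWR1 (2.42 to 4.26), the only member past 2-fold, 1 of 10 against a background of 4.28%. Spry1 and Spry4 were 1.52-fold (1.18 to 1.97) and 1.34-fold (1.18 to 1.53) higher in IWR1, and Etv5 was 1.21-fold higher (1.15 to 1.28). Dusp4, Dusp6, Etv4 and Spred1 were lower in IWR1, by 1.89-fold, 1.38-fold, 1.28-fold (1.13 to 1.45) and 1.21-fold (1.10 to 1.33), although Spred1 was level once the trend was removed (log2 difference 0.00). The median log2 difference over the 10 members was 0.13, against 0.00 over all genes compared. Intervals excluded 1 for 8 members, 4 in each direction, against 32.4% of all genes compared, shares again not on equal terms. These values use the same IWR1 and Y27 libraries as the comparisons with NT.

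Other regulators of receptor and ERK signalling were described from a list of 21 genes, 20 of which were compared. In IWR1 0 stood 2-fold or more above NT and 3 below it, against 2.29% and 2.25% of all genes compared, with a median log2 difference of -0.12. The 3 were Dusp14 and Dusp1, phosphatase genes, and Lrig1, which encodes an inhibitor of growth factor receptors. Dusp14 was at 26.5 CPM in NT, 10.4 CPM in IWR1 and 8.96 CPM in Y27, and Dusp1 at 98.9, 43.4 and 42.3 CPM, so both were low in each treated library. Lrig1 was at 32.7, 13.6 and 31.5 CPM, low in IWR1 and within counting error of NT in Y27. Dusp4 was also lowest in IWR1, but it was 1.17-fold below NT in Y27 (1.06 to 1.30). In Y27 3 genes passed 2-fold downward (Dusp14, Dusp1 and Dusp8), against 1.34% of all genes, and 1 upward (Rasa1, which encodes a Ras GTPase-activating protein), against 5.58%, with a median of -0.25. Rasa1, at a log2 difference of 1.06, turned to -0.45 with the length and GC trend removed. Dusp8, at -1.12, was short of 2-fold with a pseudocount of 5 CPM (-0.67) and on the deposited FPKM scale (-0.65), where Lrig1 in IWR1 was just short of it too (-0.998). Dusp9, another ERK phosphatase gene of the Dusp6 subfamily, was 1.32-fold lower in IWR1 (1.14 to 1.53) and 1.54-fold lower in Y27 (1.32 to 1.81), while Dusp7 was within counting error of NT in both.

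Upstream of the members, 25 of 26 genes from FGF receptor to ERK were compared. None was past 2-fold in IWR1, that is 0 of 25 against 4.55% of all genes, and 1, the Raf kinase gene Braf, was 2.53-fold higher in Y27 (2.17 to 2.95), 1 of 25 against 6.92%. Braf was at 41.2 CPM in NT, 73.8 CPM in IWR1 and 104 CPM in Y27, and its log2 difference of 1.32 in Y27 was 0.47 with the trend removed. The list's medians were -0.09 in IWR1 and -0.12 in Y27. Fgfr1, an FGF receptor gene, was at 272, 261 and 257 CPM in NT, IWR1 and Y27, named outside the rule after its values were seen.

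Of 18 FGF ligand genes, 6 were compared. Fgf8, a ligand gene active in streak formation, stood at 185 CPM in NT, 114 CPM in IWR1 and 155 CPM in Y27, which is 1.62-fold lower in IWR1 (1.46 to 1.79). Fgf5, a ligand of the primed epiblast, was at 20.7, 68.1 and 29.9 CPM, and so was the reverse of Fgf8 in IWR1. Fgf17 had 34, 7 and 14 reads and Fgf15 had 18, 51 and 27 reads in NT, IWR1 and Y27. Fgf8 and Fgf17 were thus lower in IWR1, and Fgf5 and Fgf15 higher. For Y27 over NT the intervals of Fgf8 and Fgf17 also lay below 1, that of Fgf5 lay above 1 and that of Fgf15 held 1. Any part of these ligands in the levels of the members was not tested. Fgf4 and Fgf10, also compared, had intervals for IWR1 over NT that held 1. The log2 difference of Fgf8 from NT, -0.69 in IWR1 and -0.26 in Y27, became -0.48 and 0.01 with the length and GC trend removed.

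A list of 21 other genes that ERK can induce had medians of -0.30 in IWR1 and -0.32 in Y27. In IWR1 16 were lower and 5 higher than NT, against 50.3% and 49.7% of all genes compared. Of the list, 0 were past 2-fold, against 4.55% of all genes compared. Counting intervals lay below 1 for 12 of these genes and above 1 for 1, against 19.1% and 20.3% of all genes. Intervals narrow with read number, which was not matched between list and background, so these shares are not on equal terms. The list was also chosen with earlier results of these data known. The largest differences in IWR1 were all downward: Egr3 at -0.94, Elk3 at -0.90, Ier3 at -0.83 and Epha2 at -0.82. In Y27 5 lay below NT by 2-fold or more and 1 above it, against backgrounds of 1.34% and 5.58%. The lower genes were Ier3, Maff, Plaur, Hbegf and Epha2, with log2 differences from -1.33 to -1.11, and the higher one was the ephrin receptor gene Epha4, at 1.12. These calls depended on the processing: Maff, Plaur, Epha2 and Epha4 were short of 2-fold after the trend on length and GC content was taken out (-0.99, -0.96, -0.99 and 0.89), as were Ier3, Hbegf and Plaur with a pseudocount of 5 CPM (-0.93, -0.90 and -0.81). Hbegf, an EGF receptor ligand gene, was at 18.7 CPM in NT, 13.2 CPM in IWR1 and 7.71 CPM in Y27, and Plaur, the urokinase receptor gene, had 62, 59 and 23 reads. Plaur, like Phlda1, was near NT in IWR1 and low in Y27. Egr1, an immediate early gene named after its values were seen, was at 44.2 CPM in NT, 69.8 CPM in IWR1 and 40.3 CPM in Y27, 1.58-fold higher in IWR1 (1.34 to 1.86), the 1 gene of the list with an interval above 1 there. Fos, also named after its values were seen, was 1.63-fold lower (1.17 to 2.29).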

How the data were processed

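The 3 libraries, 1 per group, were assigned to groups from the labels. The deposited expected counts are reads per gene as estimated, without normalization, and the deposited FPKM values divide them by transcript length and library total. The submitters' processing notes name Bowtie 0.12.2 and build mm8; which tool estimated the counts is not given in these sources. Per the file headers each table also gives a transcript length, and a gene absent from a table was taken as 0. All members had whole counts.

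Identifiers were matched to symbols through the RefSeq table (99.7% matched). CPM values used the TMM factors of edgeR 4.0.16 (R 4.3.3), and log2 differences used a pseudocount of 1 CPM, a mean of at least 1 CPM and a 2-fold threshold. Counts were rounded for exact conditional binomial 95% intervals. The interval calculation and the 2-fold call were run on simulated Poisson counts at fixed library sizes, which left the scaling and any spread beyond counting untested. The trend removal was run on a planted trend with length. Alternatives were pseudocounts of 0.1 and 5, scaling by library total, upper quartile or DESeq2 1.42.0 size factors, other level filters, a 1.5-fold threshold, FPKM, and removal of a cubic trend on length and GC content. GC content came from GRCm38 transcripts (96.1% of genes compared). Named genes outside the members were up to 4 per list and comparison with the largest differences among those with at least 5 CPM in the higher library, relatives of a member, and the 5 nearest in pattern. The members and lists were chosen with earlier results of these data known. Computations used Python 3.11.15, scipy 1.17.1 and matplotlib 3.10.9.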

Additional observations from a re-analysis of the deposited data

How the results depend on the processing

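Of 210 values of members under the alternatives, 203 moved by less than the distance from the centre to an end of their counting interval (log2 scale), and 7 by more. In 8 the sign changed, 3 each for Spry2 and Spred1 and 1 each for Phlda1 (IWR1 over NT) and Etv4 (Y27 over NT, -0.08 to 0.12 with the trend removed), all of them under 2-fold. Removing the length and GC trend moved the members' median for IWR1 over NT from 0.04 to -0.15 and left 0 members past 2-fold there, since Dusp4 was then at -0.97. With a 1.5-fold threshold 4, 2 and 2 members were past it in IWR1 over NT, Y27 over NT and IWR1 over Y27, in place of 1 each. Of the 12955 genes compared, 2230, 2648 and 1717 were past that threshold. The number of all genes past 2-fold was 589, 896 and 555 in these comparisons and depended on the settings. It was 1006 and 906 for IWR1 over NT and IWR1 over Y27 with a pseudocount of 0.1, and 1335 for Y27 over NT. It was 178, 383 and 199 with a pseudocount of 5, 370 and 315 for the first and the third with a mean of at least 5 CPM, and 2230, 2648 and 1717 at 1.5-fold. With the trend removed it was 322 for Y27 over NT, and the higher share of those past 2-fold was 59.6% in place of 80.7%; for IWR1 over NT that share was 40.0% in place of 50.4%. Among 357 values of other named genes, 1 past 2-fold changed sign, Rasa1 in Y27, at -0.45 with the trend removed. No paired analysis was possible because each group had 1 library, and no library could be left out. Depth limited Dusp5, Phlda1 and Spry1 most, with 55 to 218 reads per library.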
